A study of Homo sapiens with 24 samples.

Results

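The 9 genes HLA-B, HLA-C, HLA-E, B2M, TAP1, TAP2, TAPBP, PSMB8 and PSMB9, which carry out the steps of antigen presentation on MHC class I, were followed through 24 RNA libraries of HaCaT cells, an immortalised, non-malignant human keratinocyte line. They were chosen by name: each is the single row of the expression table whose gene ID maps to that symbol, which makes 9 of 58381 rows. All 9 were among the 14228 genes that averaged 0.5 FPKM or more (fragment counts scaled to transcript length and library total, the unit of the deposited values) and so entered the tests. Every cell line had been transduced, with hsa-miR-186 or with an empty vector, and 3 clonal lines of each construct were kept with 100 nM inorganic arsenic (iAs) or without it (0 nM) and harvested at weeks 29 and 12. The 8 groups of 3 libraries are thus miR-186 at 100 nM, miR-186 at 0 nM, vector at 100 nM and vector at 0 nM, each at week 29 and at week 12. Each construct rests on 3 clones. The triplicates are labelled biological and independent, but which clone carries which replicate number is not stated, so p-values measure the spread between these samples only. The design sets exposure, construct and time against each other, so the comparisons below share clones, and those that share a group share libraries as well.

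Class I molecules show peptides from inside the cell to CD8 T cells and to natural killer cells. The proteasome cuts proteins into peptides, and under interferon it takes up the inducible subunits PSMB8 (LMP7) and PSMB9 (LMP2). TAP1 and TAP2 form the transporter that moves peptides into the endoplasmic reticulum, where tapasin (TAPBP) holds the empty class I molecule at the transporter until a peptide fits. The heavy chains HLA-B and HLA-C present to T cells and to killer cell receptors, HLA-E presents leader peptides of other heavy chains to NKG2A, and beta-2 microglobulin (B2M) is the light chain that they all need to reach the surface. Their promoters are known for interferon response elements and for an SXY module, on which RFX, CREB/ATF and NF-Y factors assemble with the transactivator NLRC5. Keratinocytes express class I constitutively and raise it with interferon.

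Promoters of 5 of these genes are printed: the 2 classical heavy chains and the light chain they pair with, and the divergent pair TAP1 and PSMB9. The capitals mark motifs found by search on both strands. RefSeq (GRCh38.p14) gave windows of 300 bases, 250 before and 50 after a start site, for 8 of the 9 genes. The motifs were GAAANNGAA, 1 form of the core of an interferon response element, CCAAT, the NF-Y box, and TGACG, the half-site of CREB and ATF. No 2 different motifs overlapped, while copies of 1 motif may. Of 35116 promoter windows of this length, 8.11% held the first, 34.6% the second and 24.6% the third.
HLA-B (chr6:31357130-31357429, minus strand): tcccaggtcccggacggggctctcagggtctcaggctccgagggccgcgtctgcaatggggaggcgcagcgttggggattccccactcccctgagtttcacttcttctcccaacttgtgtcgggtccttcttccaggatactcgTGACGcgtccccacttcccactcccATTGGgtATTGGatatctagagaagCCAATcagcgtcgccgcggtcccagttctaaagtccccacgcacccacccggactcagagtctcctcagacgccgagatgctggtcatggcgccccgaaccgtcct
HLA-C (chr6:31272043-31272342, minus strand): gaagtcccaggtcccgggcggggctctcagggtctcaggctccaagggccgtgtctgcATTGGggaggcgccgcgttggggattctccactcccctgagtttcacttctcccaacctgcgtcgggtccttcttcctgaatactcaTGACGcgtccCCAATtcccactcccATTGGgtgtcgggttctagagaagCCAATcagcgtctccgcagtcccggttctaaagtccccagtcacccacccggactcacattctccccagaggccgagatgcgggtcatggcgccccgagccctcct
B2M (chr15:44711267-44711566, plus strand): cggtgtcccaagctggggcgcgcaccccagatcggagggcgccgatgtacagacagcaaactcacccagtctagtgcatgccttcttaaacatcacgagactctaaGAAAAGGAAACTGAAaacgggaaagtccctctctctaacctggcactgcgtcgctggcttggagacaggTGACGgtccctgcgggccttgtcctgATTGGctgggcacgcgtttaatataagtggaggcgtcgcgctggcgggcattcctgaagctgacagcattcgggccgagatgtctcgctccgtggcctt
TAP1 (chr6:32853655-32853954, minus strand): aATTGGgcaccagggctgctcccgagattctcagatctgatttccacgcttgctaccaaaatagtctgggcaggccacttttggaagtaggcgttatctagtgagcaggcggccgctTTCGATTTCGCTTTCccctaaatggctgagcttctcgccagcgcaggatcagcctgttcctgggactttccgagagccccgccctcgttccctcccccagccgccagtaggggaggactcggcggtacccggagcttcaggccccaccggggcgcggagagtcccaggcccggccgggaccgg
PSMB9 (chr6:32853942-32854241, plus strand): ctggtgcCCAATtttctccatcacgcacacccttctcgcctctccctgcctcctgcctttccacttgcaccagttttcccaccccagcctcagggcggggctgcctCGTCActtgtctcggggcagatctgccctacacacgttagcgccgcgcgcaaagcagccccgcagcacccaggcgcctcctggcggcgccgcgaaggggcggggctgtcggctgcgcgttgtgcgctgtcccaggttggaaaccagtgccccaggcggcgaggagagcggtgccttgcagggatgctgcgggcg
Both heavy chain promoters held 1 TGACG and at least 3 copies of CCAAT in either direction, and B2M held both motifs with 2 overlapping copies of GAAANNGAA, shown as 1 run of capitals. The 8 genes had 10 windows, with 2 each for TAP1 and PSMB8, and a gene was counted if any window held the motif. Counted so, GAAANNGAA was found in 5 (B2M, TAP1, TAP2, TAPBP and PSMB8), CCAAT in 5 and TGACG in 6. PSMB8 held GAAANNGAA in its second window only. The shares given above are per window, so they are not a like measure for these counts of genes. TAP1 and PSMB9 are transcribed away from each other from start sites 488 bases apart, and their printed windows overlap by 13 bases. These are matches of letters, and no factor was measured on them here.

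Across the series, each library's FPKM summed to between 712797 and 905683, with 13803 to 14588 genes at or above 0.5 FPKM. The files give FPKM without read counts, so the depth behind a value is unknown and no counting interval is given. MIR186 was listed at 0 in all 24 libraries, which were made from mRNA, and its host gene ZRANB2 ranged from 19.9 to 65.3 FPKM, so the transduced microRNA itself is not checked by these values. All 7 keratinocyte markers had medians above 1 FPKM and summed to between 1150 and 5370 FPKM, while the 5 leukocyte markers, whose cells carry much class I, summed to between 1.13 and 7.48 FPKM with CD68 as the main part and PTPRC at most 0.208 FPKM. The 5 fibroblast markers summed to between 1.75 and 95.6 FPKM (DCN up to 78.0, COL1A2 at 0 in 21 libraries), the 3 endothelial markers to between 4.04 and 20.9 FPKM, nearly all CDH5, and the 4 melanocyte markers to between 0.731 and 2.37 FPKM with TYR at 0 in all 24. The part of these markers in the results was not tested. In bulk RNA, fewer cells that express a gene and less RNA per cell cannot be told apart. A library's slope of expression on gene GC content ran from -0.388 to 0.44 log2 units per 10 percentage points of GC, which matters here because the members span a GC content of 40.6% (B2M) to 62.7% (HLA-C).

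B2M was by far the highest of the 9, with a median of 5770 FPKM over the 24 libraries (lowest 2590, highest 13000), and ranked 13 among all 14228 genes. HLA-B followed with a median of 713 FPKM (362 to 1050), HLA-C with 185 (118 to 293) and HLA-E with 109 (81.4 to 147). This order of B2M, HLA-B, HLA-C and HLA-E held in 24 of 24 libraries. PSMB8 and PSMB9 had medians of 82.1 and 73.0 FPKM, and TAP1 one of 61.1 FPKM. These neighbours changed places between libraries: HLA-E was above PSMB8 in 22 of 24, PSMB8 above PSMB9 in 18, and PSMB9 above TAP1 in 20. TAP1 stood above its partner TAP2 in all 24 libraries, by a median of 2.45 times, and TAP2 (24.8 FPKM) above TAPBP (20.9 FPKM) in 21. FPKM are scaled to length, but these levels are not corrected for GC content or for reads shared between overlapping genes. The order across genes is therefore that of the deposited values only.

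**Figure D1:**
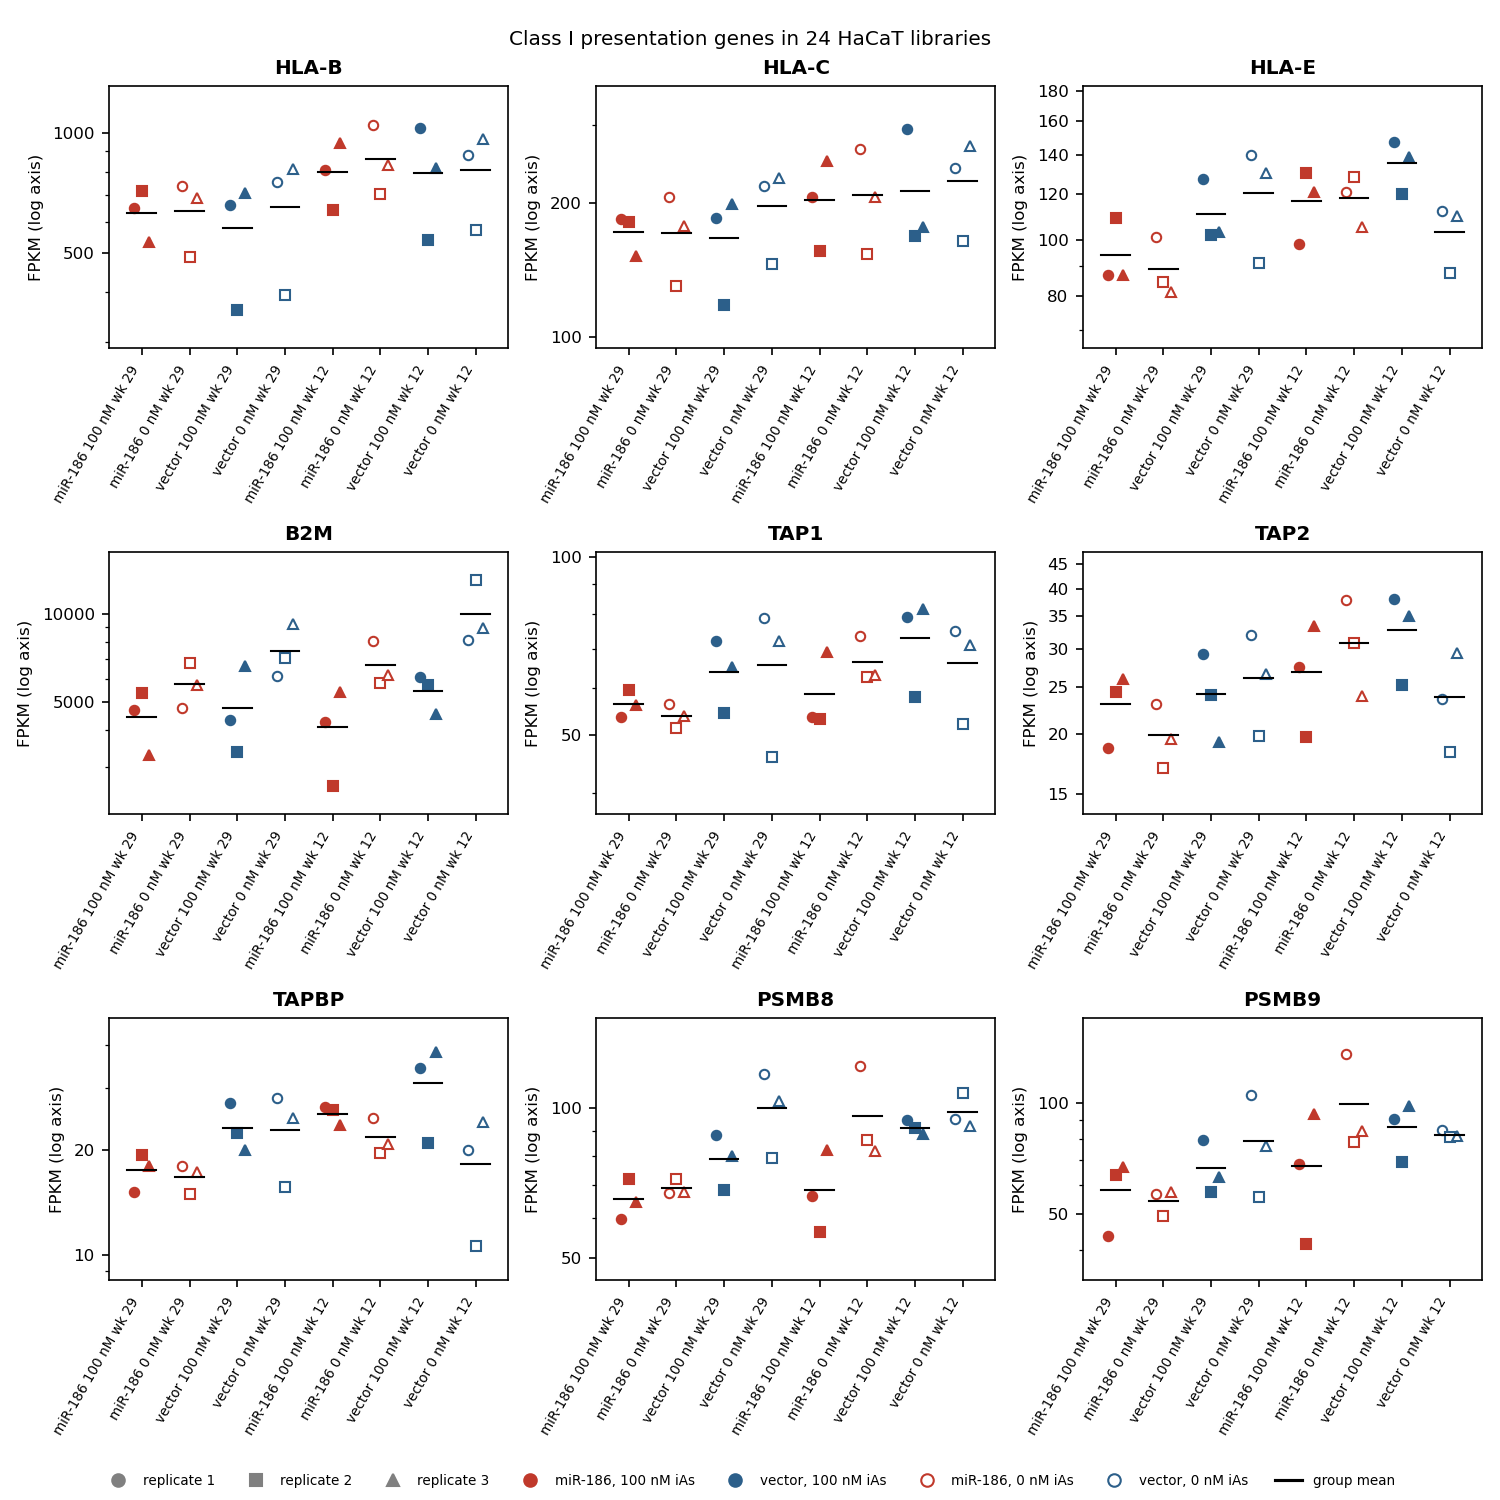
Levels of the 9 genes (FPKM, log axis) in the 8 groups; each point is a library, shaped by replicate number and filled at 100 nM iAs, and the bar is the group mean. Vector replicate 2 (blue squares) is the lowest of its group for HLA-B in all 4 vector groups, between 362 and 573 FPKM.

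HLA-B, the most abundant heavy chain of the 3, varied widely within vector groups. In vector clones at week 29 its values were 662, 362 and 710 FPKM at 100 nM, against 755, 393 and 815 FPKM at 0 nM. At week 12 they were 1030, 540 and 817 FPKM at 100 nM, against 882, 573 and 967 FPKM at 0 nM. Replicate 2 was the lowest library of all 4 vector groups, at 362 to 573 FPKM, against 662 to 1030 FPKM in replicates 1 and 3. The same replicate was lowest in all 4 vector groups for HLA-C, HLA-E, TAP1 and PSMB9 too, which makes 5 of the 9 genes, while 8% of the 14228 genes tested showed this pattern. For TAP1 it stood at 46.0 to 58.0 FPKM, against 65.2 to 81.5 FPKM in replicates 1 and 3. Among miR-186 clones replicate 2 was lowest in all 4 groups for 0 of 9 members (8.74% of all genes), and the HLA-B values there ran from 489 to 1050 FPKM. Whether replicate 2 is the same clone in each vector group is not given in the labels.

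Exposure to 100 nM iAs was set against 0 nM within each construct and week. No member passed limma's Benjamini-Hochberg adjusted threshold of 0.05 in any of these 4 comparisons. Over all genes, 1.38% passed in vector clones at week 12 and 0.0% in each of the other 3 (miR-186 at week 12, and both constructs at week 29). At an unadjusted limma p under 0.05 there were 3 of 9 members in miR-186 clones at week 12 (11% of all genes) and 0 of 9 at week 29 (2.19%), and 3 of 9 in vector clones at week 12 (29.3%) and 1 of 9 at week 29 (3.9%). The median log2 change of the members was -0.19 in miR-186 and 0.05 in vector clones at week 12, beside 0.02 and 0.00 for all genes. At week 29 it was 0.06 in miR-186 and -0.17 in vector clones, beside -0.01 and 0.03. After the GC correction the medians were -0.30 and -0.28 at week 12 and -0.06 and -0.16 at week 29 in miR-186 and vector clones, so that 2 of the 4 turned sign. Shares near the background, as in vector clones at week 12, say nothing about the members as a set.

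B2M, the light chain, had the lowest log2 change of the 9 members under iAs in all 4 comparisons before the GC correction. In miR-186 clones at week 12 it stood at 4290, 2590 and 5420 FPKM at 100 nM, against 8060, 5800 and 6180 FPKM at 0 nM. In vector clones at week 12 it stood at 6080, 5720 and 4560 FPKM at 100 nM, against 8110, 13000 and 8960 FPKM at 0 nM. In both, all 3 exposed libraries lay below all 3 unexposed ones, as did 8.16% of all genes in miR-186 clones and 17.7% in vector clones. The log2 changes were -0.75 ± 0.28 (SE; 0.593-fold, limma adjusted p = 0.359) in miR-186 clones and -0.86 ± 0.28 (0.552-fold, limma adjusted p = 0.0736) in vector clones. At week 29 the groups overlapped, with 4700, 5360 and 3310 FPKM at 100 nM against 4760, 6810 and 5730 FPKM at 0 nM in miR-186 clones. Vector clones then had 4350, 3380 and 6620 FPKM at 100 nM, against 6160, 7080 and 9220 FPKM at 0 nM. The changes at week 29 were -0.38 ± 0.28 (limma adjusted p = 0.999) and -0.68 ± 0.28 (limma adjusted p = 1) in miR-186 and vector clones. B2M was thus below 0 in all 4, which use separate libraries but the same clones at both weeks, and none of the 4 passed.

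GC content moved with the exposure at week 12, and B2M has the lowest GC content of the 9. The libraries' GC slopes were 0.119 to 0.397 at 100 nM against -0.090 to 0.143 at 0 nM in miR-186 clones, and 0.191 to 0.440 at 100 nM against -0.216 to -0.081 at 0 nM in vector clones. After a correction for gene GC content, the B2M changes at week 12 were -0.59 ± 0.24 in miR-186 and -0.52 ± 0.24 in vector clones, and at week 29 -0.29 ± 0.24 and -0.63 ± 0.24. The direction stayed, and the change in vector clones at week 12 was over 1.5 times smaller than without the correction. B2M was then no longer the lowest member at week 12. HLA-C (-0.79 ± 0.40) and HLA-B (-0.54 ± 0.37) lay below it in vector clones, and PSMB8 (-0.60 ± 0.17) in miR-186 clones.

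**Figure D2:**
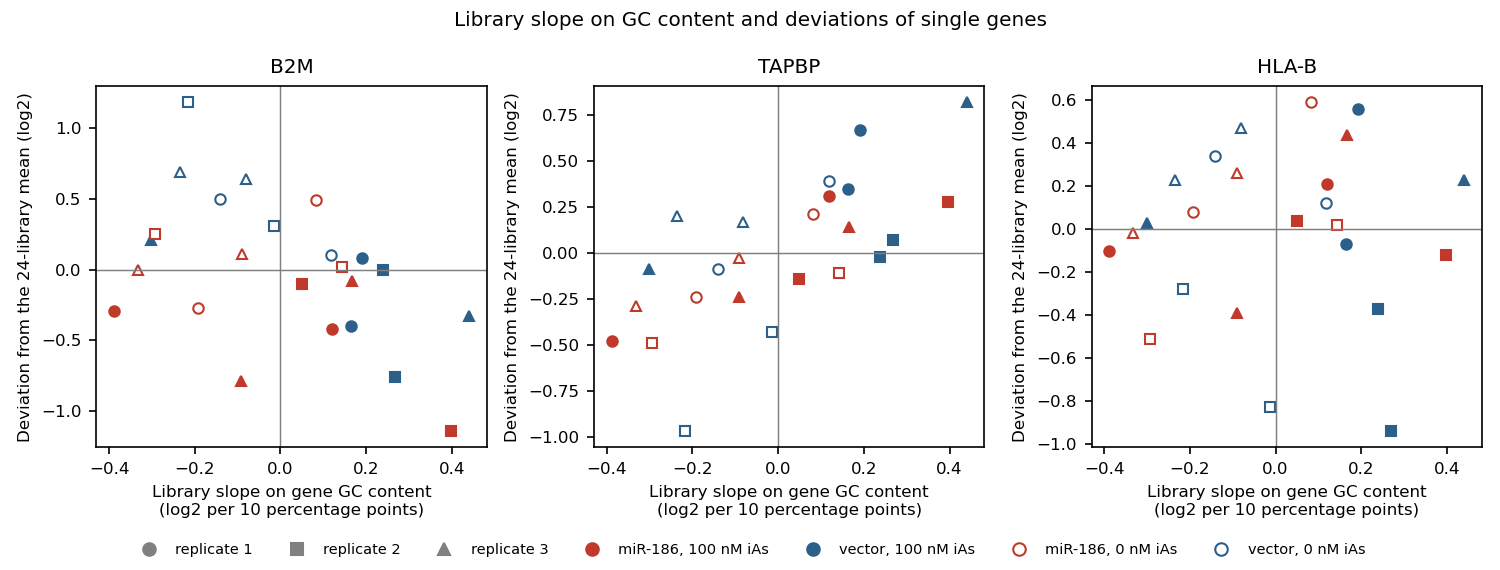
Each library's slope of expression on gene GC content (x, log2 per 10 percentage points) beside the log2 deviation of B2M, TAPBP and HLA-B from their 24-library means (y); points are libraries, coloured by construct, filled at 100 nM iAs and shaped by replicate number. The library with the lowest B2M deviation, -1.14, has a slope of 0.397, and the one with the highest, 1.18, has a slope of -0.216.

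The peptide-loading and proteasome genes gave a mixed picture under iAs. TAPBP, which holds class I at the transporter, stood at 34.3, 20.9 and 38.1 FPKM at 100 nM in vector clones at week 12, against 20.0, 10.6 and 24 FPKM at 0 nM. Replicate 2 was lowest on both sides and the groups overlapped; the log2 change was 0.79 ± 0.26 (1.73-fold, limma adjusted p = 0.0723) and 0.36 ± 0.24 after the GC correction. HLA-E in the same comparison stood at 147, 120 and 139 FPKM at 100 nM, against 112, 87.6 and 110 FPKM at 0 nM. All 3 exposed libraries were above the unexposed ones, as for 19.5% of all genes, with a change of 0.39 ± 0.17 (limma adjusted p = 0.134), or 0.14 ± 0.15 after the GC correction. The inducible proteasome subunits lay lower in exposed miR-186 clones at week 12. PSMB8 had 66.6, 56.4 and 82.2 FPKM at 100 nM, against 121, 86.2 and 82.0 FPKM at 0 nM (-0.49 ± 0.17, limma adjusted p = 0.352). PSMB9 had 68.5, 41.4 and 93.3 FPKM at 100 nM, against 136, 78.5 and 84.0 FPKM at 0 nM (-0.59 ± 0.27, limma adjusted p = 0.442). The groups overlapped for both. The ratio of B2M to the summed heavy chains HLA-B, HLA-C and HLA-E was 3.59 ± 0.706 at 100 nM and 5.64 ± 0.242 at 0 nM in these clones (SD, n = 3 each, no overlap), and 5.02 ± 1.63 and 9.66 ± 5.27 in vector clones at week 12, where 1 library at 100 nM (6.91) lay above 2 at 0 nM. No test was run on the ratios, and they were not corrected for GC content. After the GC correction the log2 changes at week 12 in vector clones were -0.52 for B2M, -0.54 for HLA-B, -0.79 for HLA-C and 0.14 for HLA-E. In miR-186 clones they were -0.59, -0.30, -0.26 and -0.15 in the same order.

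Clones carrying miR-186 were set against vector clones at each dose and week. Again no member passed limma's adjusted threshold in any of the 4 comparisons, in which 3.44% (0 nM, week 12), 2.86% (0 nM, week 29), 2.02% (100 nM, week 12) and 0.864% (100 nM, week 29) of all genes did. In the same order, the members with an unadjusted limma p under 0.05 numbered 0 (20.1% of all genes), 2 (19.9%), 1 (14.5%) and 0 (14.5%). The members' median log2 change was 0.11 at 0 nM and week 12, with 6 of 9 above 0, beside -0.03 for all genes. In the other 3 comparisons most members lay below 0: 8 of 9 at 0 nM and week 29 (median -0.37, all genes 0.02), 8 of 9 at 100 nM and week 12 (median -0.29, all genes -0.04) and 7 of 9 at 100 nM and week 29 (median -0.17, all genes 0.00). After the GC correction these 3 medians were -0.28, -0.24 and -0.13, with 7, 7 and 6 of 9 below 0, and that at 0 nM and week 12 turned to -0.09.

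PSMB8, the inducible subunit that replaces PSMB5, was the member with the clearest gap between constructs. At 0 nM and week 29 it stood at 67.5, 72.0 and 67.9 FPKM in miR-186 clones, against 117, 79.4 and 103 FPKM in vector clones. At 100 nM and week 12 it stood at 66.6, 56.4 and 82.2 FPKM in miR-186 clones, against 94.4, 91.0 and 88.4 FPKM in vector clones. The groups did not overlap in either comparison, as for 12.1% and 9.85% of all genes in that direction. The changes were -0.51 ± 0.17 (0.703-fold, limma adjusted p = 0.098) and -0.43 ± 0.17 (0.742-fold, limma adjusted p = 0.215), and after the GC correction -0.41 ± 0.17 and -0.40 ± 0.17. At 100 nM and week 29 it stood at 59.9, 72.1 and 64.8 FPKM against 88.0, 68.5 and 80.1 FPKM, and at 0 nM and week 12 at 121, 86.2 and 82.0 FPKM against 94.8, 107 and 92.1 FPKM; both overlapped. Over PSMB5, its constitutive counterpart, PSMB8 averaged 0.718 to 0.893 in the miR-186 groups and 0.950 to 1.09 in the vector groups. Single libraries overlapped, at 0.609 to 1.28 in miR-186 clones and 0.874 to 1.33 in vector clones.

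HLA-E was also lower in miR-186 clones (0 nM, week 29), at 101, 84.7 and 81.4 FPKM against 140, 91.2 and 130 FPKM in vector clones. The groups overlapped through vector replicate 2, and the change was -0.42 ± 0.17 (limma adjusted p = 0.172), or -0.28 ± 0.15 after the GC correction. B2M at 0 nM and week 12 stood at 8060, 5800 and 6180 FPKM in miR-186 clones, all below the 8110, 13000 and 8960 FPKM of vector clones. The lowest vector library was barely above the highest miR-186 library, 15.1% of all genes showed the same order, and the change was -0.57 ± 0.28 (limma adjusted p = 0.265), or -0.42 ± 0.24 after the GC correction. The B2M groups overlapped in the other construct comparisons. Its changes there were -0.37 (0 nM, week 29), -0.46 (100 nM, week 12) and -0.07 (100 nM, week 29), each ± 0.28. After the GC correction these were -0.54, -0.49 and -0.20, each ± 0.24. TAPBP at 100 nM and week 29 stood at 15.2, 19.3 and 18.0 FPKM in miR-186 clones, below the 27.2, 22.3 and 20.0 FPKM of vector clones. Here 6.8% of all genes did the same, and the change was -0.39 ± 0.26 (limma adjusted p = 0.502), or -0.20 ± 0.24 after the GC correction. HLA-B and HLA-C overlapped between constructs in all 4 comparisons.

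**Figure D3:**
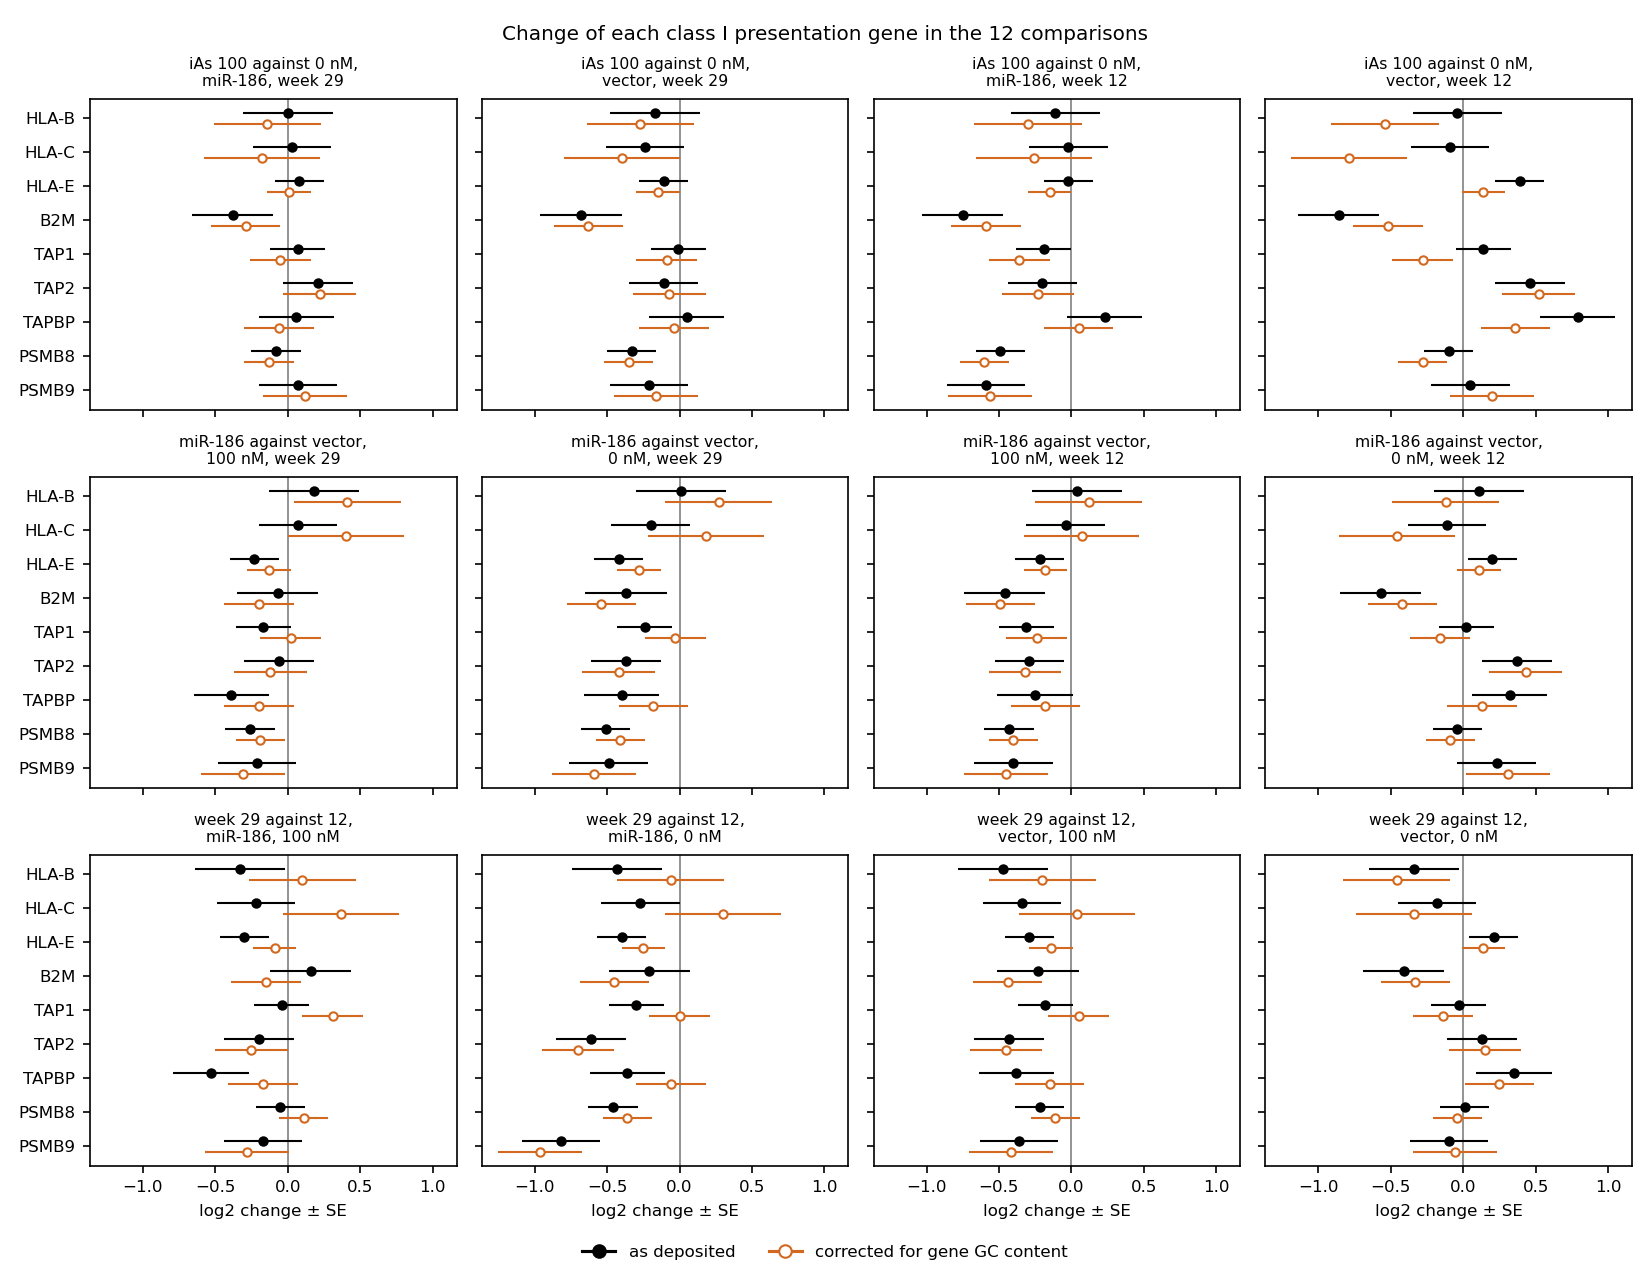
Log2 change ± SE of each gene in the 12 comparisons, from the deposited values (filled) and after correction for gene GC content (open). Exposure is in the top row, construct in the middle and time at the bottom; no filled point passed the adjusted threshold, and the lowest adjusted p was 0.0723.

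Week 29 was set against week 12 within each construct and dose. No member passed limma's adjusted threshold, while 2.9% of all genes did in miR-186 clones at 0 nM, 12.2% in miR-186 clones at 100 nM, 0.907% in vector clones at 0 nM and 0.183% in vector clones at 100 nM. At an unadjusted limma p under 0.05 there were 4 of 9 members in miR-186 clones at 0 nM (24.6% of all genes) and 0 of 9 in the other 3 comparisons (31.9%, 9.48% and 14.5% of all genes for miR-186 at 100 nM, vector at 0 nM and vector at 100 nM). All 9 changes were below 0 in miR-186 clones at 0 nM, with a median of -0.40 beside 0.06 for all genes. All 9 were below 0 in vector clones at 100 nM as well (median -0.34, all genes -0.02), 8 of 9 in miR-186 clones at 100 nM (median -0.20, all genes 0.02) and 5 of 9 in vector clones at 0 nM (median -0.03, all genes 0.00). After the GC correction the counts below 0 were 7, 7, 5 and 6 of 9 in the same order, with medians of -0.25, -0.15, -0.09 and -0.06.

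The widest gaps between weeks were those of miR-186 clones at 0 nM. PSMB9, the inducible subunit encoded beside TAP1, stood at 56.7, 49.3 and 57.3 FPKM at week 29, against 136, 78.5 and 84.0 FPKM at week 12, a change of -0.82 ± 0.27 (0.565-fold, limma adjusted p = 0.0877). TAP2 stood at 23.0, 17 and 19.5 FPKM at week 29, against 37.8, 30.8 and 23.9 FPKM at week 12 (-0.61 ± 0.24, limma adjusted p = 0.135). PSMB8 stood at 67.5, 72.0 and 67.9 FPKM at week 29, against 121, 86.2 and 82.0 FPKM at week 12 (-0.46 ± 0.17, limma adjusted p = 0.111). In each of these 3, all week 29 libraries lay below all week 12 libraries. The same held for HLA-E (-0.40 ± 0.17), TAPBP (-0.36 ± 0.26) and TAP1 (-0.30 ± 0.19), which makes 6 of 9 members, while 14.2% of all genes lay lower without overlap. After the GC correction PSMB9 and TAP2 were at -0.96 ± 0.29 and -0.70 ± 0.25, PSMB8 at -0.36 ± 0.17, HLA-E at -0.25 ± 0.15, TAPBP at -0.06 ± 0.24 and TAP1 at 0.00 ± 0.21. GC slopes were -0.332 to -0.192 at week 29 and -0.090 to 0.143 at week 12 in these clones.

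The other groups showed fewer such gaps between weeks. In miR-186 clones at 100 nM, TAPBP stood at 15.2, 19.3 and 18.0 FPKM at week 29, against 26.6, 26.0 and 23.6 FPKM at week 12, without overlap (14.9% of all genes in that direction). The change was -0.53 ± 0.26 (0.692-fold, limma adjusted p = 0.16) and passed when the replicate number was fitted as a block (-0.53 ± 0.18, limma adjusted p = 0.0481). The numbers paired these libraries by the check described under processing, but with the GC correction in the same fit the change was -0.17 ± 0.11 (limma adjusted p = 0.327). The block raised the count over all genes to 3194, against 1732 without it. In vector clones at 100 nM, PSMB8 stood at 88.0, 68.5 and 80.1 FPKM at week 29, all below the 94.4, 91.0 and 88.4 FPKM of week 12 (8% of all genes), with a change of only -0.22 ± 0.17 (limma adjusted p = 0.53). HLA-B had 650, 716 and 533 FPKM at week 29 against 808, 643 and 946 FPKM at week 12 in miR-186 clones at 100 nM, and 736, 489 and 688 FPKM against 1050, 704 and 832 FPKM at 0 nM. Its log2 changes were -0.33, -0.43, -0.47 and -0.34 (± 0.31 each) in miR-186 at 100 and 0 nM and vector at 100 and 0 nM, the groups overlapped in all 4, and after the GC correction they were 0.10, -0.06, -0.20 and -0.46 (± 0.37 each) in the same order.

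Differences between effects were tested directly as well. No member passed limma's adjusted threshold in any of the 6 tests, and neither did any gene of the table (0.0% each). The effect of iAs in miR-186 minus that in vector clones gave 0 of 9 members an unadjusted limma p under 0.05 at week 12 (2.96% of all genes) and 0 of 9 at week 29 (1.91%). The effect of iAs at week 29 minus that at week 12 gave 0 of 9 in miR-186 clones (3.09%) and 1 of 9 in vector clones (7.44%), which was HLA-E (-0.50 ± 0.24, limma adjusted p = 0.656). The construct effect at week 29 minus that at week 12 gave 2 of 9 at 0 nM (13.4%) and 0 of 9 at 100 nM (2.54%). The 2 were HLA-E (-0.61 ± 0.24, limma adjusted p = 0.336) and TAP2 (-0.74 ± 0.34, limma adjusted p = 0.363). With the GC correction HLA-E was at -0.29 ± 0.22 in the iAs difference and at -0.40 ± 0.22 in the construct difference, neither with an unadjusted limma p under 0.05. TAP2 was then at -0.85 ± 0.36 and PSMB9 at -0.90 ± 0.41 in the construct difference, with unadjusted limma p of 0.0289 and 0.0384. For B2M the iAs effects in miR-186 and vector clones differed by 0.10 ± 0.40 at week 12 and by 0.30 ± 0.40 at week 29.

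HLA-B and HLA-C, and PSMB8 and PSMB9, varied together across libraries, while B2M varied less closely with the others. Over the 24 libraries, which share clones, HLA-B and HLA-C had a Pearson r of 0.91 on the log2(FPKM + 0.5) scale, and HLA-B stood 2.69 to 4.62 times above HLA-C. PSMB8 and PSMB9 had an r of 0.85. The 28 pairs without B2M had r of 0.23 to 0.91 (median 0.62), and the 8 pairs with B2M had r of -0.33 to 0.72 (median 0.24). Within groups, after the group means were taken off, these were 0.22 to 0.93 (median 0.615) and -0.33 to 0.55 (median 0.17). These correlations are descriptions over n = 24 libraries, with no p, since libraries share clones and GC slopes. HLA-B and HLA-C lie on the same strand of GRCh38 chromosome 6, and the annotated span of HLA-B (31269491 to 31357188) reaches over HLA-C (31268749 to 31272130). Only 2.00% of the 50-base words of the HLA-B transcript were found in that of HLA-C, but reads could still have been split between them by the counting. The annotated span of PSMB9 overlaps TAP1 and PSMB8 on the other strand, and all 3 overlap PSMB8-AS1 (median 17.2 FPKM), so that without a stated strand setting their reads cannot be fully told apart.

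**Figure D4:**
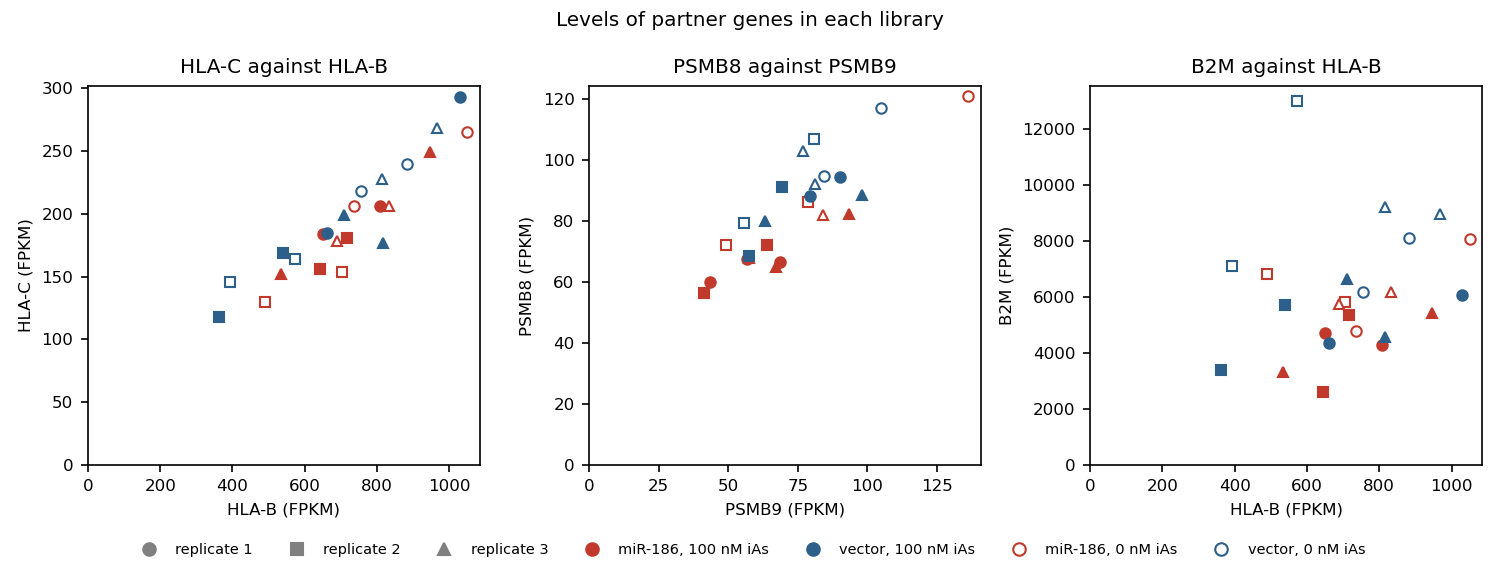
Levels (FPKM) of HLA-C against HLA-B, PSMB8 against PSMB9, and B2M against HLA-B, with 1 point for each of the 24 libraries, coloured by construct, filled at 100 nM iAs and shaped by replicate number. The first 2 pairs line up (r = 0.91 and 0.85), while the highest B2M value, 13000 FPKM, belongs to a library with 573 FPKM of HLA-B.

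Outside the members and other HLA genes, those whose pattern was most like the mean of the 9 over the 24 libraries were SERPINA3 (r = 0.88), which encodes an acute-phase protease inhibitor, ULBP2 (0.81), which encodes a stress ligand of NKG2D, MXD1 (0.81), HAPLN3 (0.80) and APOL2 (0.79). Within groups they were JARID2 (0.90), SERPINA3 (0.89), DUSP22 (0.87), IRF1 (0.87), which encodes an interferon regulatory factor that binds class I promoters, and MICB (0.87). SCP2 (0.92) was among the closest to B2M alone, and those closest to HLA-E were SLURP2 (0.88) and DDR1 (0.86).

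The rest of the pathway was described from lists of known genes. Among 9 genes of peptide loading and trimming, TAPBPL, which encodes TAPBPR, a tapasin-related editor of class I peptides, was the only one that passed, and it did so between constructs. At 0 nM and week 29 it stood at 9.19, 5.96 and 8.33 FPKM in miR-186 clones, against 24.2, 17.6 and 13.5 FPKM in vector clones (-1.17 ± 0.26, limma adjusted p = 0.0205). At 100 nM and week 12 it stood at 7.62, 9.56 and 11.6 FPKM in miR-186 clones, against 22.4, 17.6 and 20.0 FPKM in vector clones (-1.03 ± 0.26, limma adjusted p = 0.0439). It thus fell in both, with no overlap. At 100 nM and week 29 it had 9.01, 8.23 and 7.54 FPKM against 20.9, 21.1 and 12.5 FPKM (-1.06 ± 0.26, limma adjusted p = 0.0538), and at 0 nM and week 12 it had 11.9, 6.54 and 6.11 FPKM against 15.2, 10.5 and 13.5 FPKM (-0.69 ± 0.26, limma adjusted p = 0.142). Corrected for GC content, the 4 changes ran from -0.97 to -0.87, and that at 0 nM and week 12 passed (-0.88 ± 0.23, limma adjusted p = 0.0292). That at 100 nM and week 29 passed with the replicate block, where the samples share only a number. The calls at 0 nM and week 29 and at 100 nM and week 12 were lost without the filter on low values and when only the compared groups were fitted. With 1 library left out, the first held in 2 of 6 fits (without miR-186 replicate 1 or vector replicate 3, adjusted p up to 0.124 in the others) and the second in 1 of 6 (without miR-186 replicate 3, up to 0.196). TAPBP, its relative among the members, did not pass in any of these comparisons. VAMP1 (median 3.04 FPKM) lies on the other strand of TAPBPL.

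Of the 12 class I-like genes, CD1D, which presents lipids to NKT cells, fell in miR-186 clones (0 nM, week 29), at 0.444, 0.561 and 0.589 FPKM against 2.52, 2.53 and 2.6 FPKM in vector clones (-1.57 ± 0.27, limma adjusted p = 0.00365). The call held in 6 of 6 fits with 1 library left out and was lost without the filter on low values (limma adjusted p = 0.271). In the other construct comparisons CD1D was at -0.83 (0 nM, week 12), -1.0 (100 nM, week 12) and -1.02 (100 nM, week 29), each ± 0.27, with limma adjusted p of 0.0957, 0.0615 and 0.0798. It fell by week 29 in miR-186 clones at 0 nM too (-1.05 ± 0.27, limma adjusted p = 0.0401), a call held in 1 of 6 fits with 1 library left out (without miR-186 replicate 1 at week 12). No other gene of this list passed in the 12 comparisons.

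Some type I interferon-stimulated genes rose in miR-186 clones, where no class I member passed. Of 18 measured, 5 rose at 0 nM and week 12, 5 at 100 nM and week 12, 1 at 100 nM and week 29 and 0 at 0 nM and week 29, beside 3.44%, 2.02%, 0.864% and 2.86% of all genes called in either direction. The list medians were 0.61, 0.78, 0.75 and 0.57 in that order, beside -0.03, -0.04, 0.00 and 0.02 for all genes. These medians are without the GC correction. The list was chosen with earlier results of these data known, so its counts and medians are descriptions only. OASL, which encodes an antiviral protein, stood at 55.6, 27.7 and 32.0 FPKM in miR-186 clones (0 nM, week 12), against 3.72, 3.30 and 3.77 FPKM in vector clones (3.19 ± 0.39, limma adjusted p = 0.00011). RSAD2, the gene of viperin, stood at 18.5, 6.87 and 19.2 FPKM against 1.60, 0.481 and 1.02 FPKM there (3.26 ± 0.61, limma adjusted p = 0.00538). Both calls held in 6 of 6 fits with 1 library left out, whereas IFI44 (1.96 ± 0.47) and HERC5 (1.70 ± 0.44) kept theirs in 1 of 6 each, the one without miR-186 replicate 2. Without the filter on low values OASL passed and RSAD2 (limma adjusted p = 0.122), IFI44 and HERC5 did not. At 100 nM and week 12, OASL kept its call in 6 of 6 fits with 1 library left out, RSAD2 in 4, and IFI44 and CMPK2 in 2 each. Each was lost when only the compared groups were fitted. The call at 100 nM and week 29 was RSAD2 (2.79 ± 0.61, limma adjusted p = 0.0298), held in 2 of 6. It was lost without the filter and with only the compared groups. OASL also rose by week 29 in vector clones at 0 nM (1.92 ± 0.39, limma adjusted p = 0.0165), a call held in 2 of 6 fits with 1 library left out (without replicate 3 at week 12 or replicate 2 at week 29). RSAD2 overlaps CMPK2 on the other strand. At 0 nM and week 29, with 0 of 18 past the threshold, 13 of 18 were above 0. Of 11 listed interferon gamma response genes, a group that class I genes belong to, 8 were tested and the others averaged under 0.5 FPKM. The 8 had medians of -0.51, -0.62, -0.39 and -0.23 in those 4 comparisons (the last for 0 nM and week 29), without the GC correction. UBE2L6 alone was past the threshold (-0.64 ± 0.16 at 0 nM and week 29, limma adjusted p = 0.0334). After the GC correction UBE2L6 did not pass (-0.43 ± 0.19, limma adjusted p = 0.231), and it was lost in 5 of 6 fits with 1 library left out, all but the one without vector replicate 2.

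**Figure D5:**
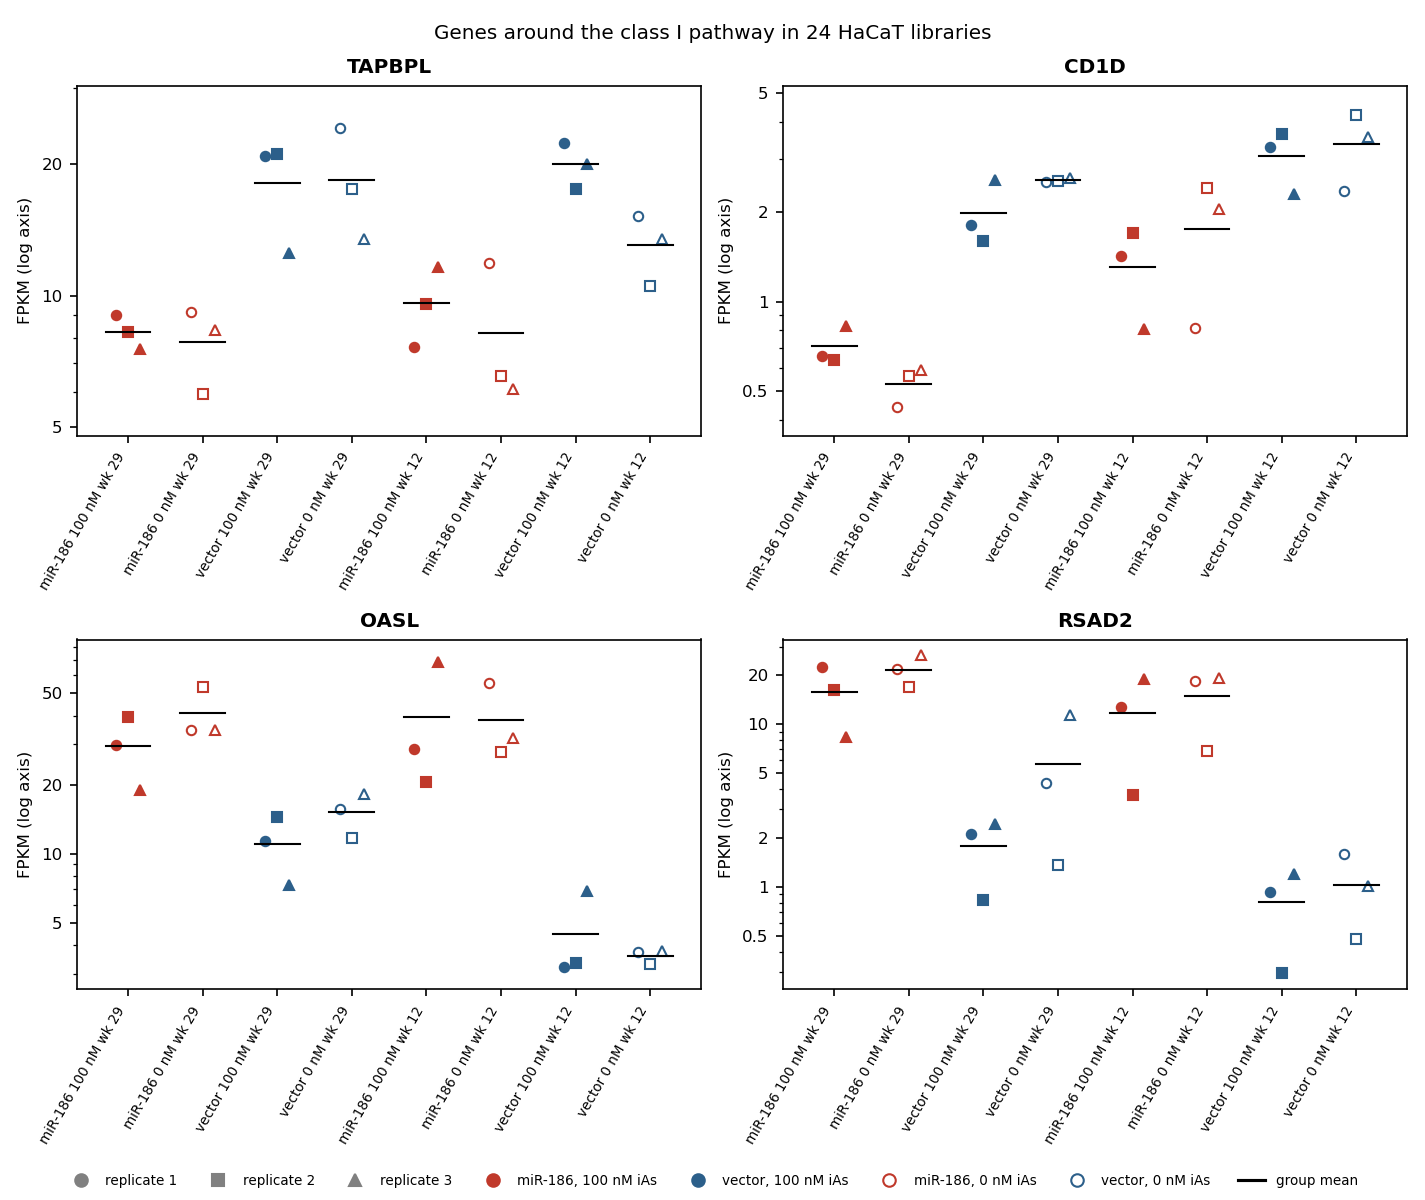
Levels (FPKM, log axis) of TAPBPL, CD1D, OASL and RSAD2 in the 8 groups; each point is a library, shaped by replicate number, red for miR-186 and blue for vector, filled at 100 nM iAs, and the bar is the group mean. TAPBPL stays between 5.96 and 11.9 FPKM in miR-186 clones and between 10.5 and 24.2 FPKM in vector clones, while OASL lies between 19 and 68.7 FPKM in miR-186 clones and between 3.21 and 18.3 FPKM in vector clones.

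Regulators of class I genes and other proteasome genes passed in few comparisons. NLRC5, the class I transactivator, ranged from 3.34 to 12.7 FPKM and passed in none of the 12. IRF1 ranged from 42.9 to 102 FPKM and passed in none. By week 29, miR-186 clones at 0 nM rose in NFYC (0.92 ± 0.18, limma adjusted p = 0.0115), NFKB1 (0.54 ± 0.13, 0.0306) and PSME3 (0.48 ± 0.12, 0.0365), which encode a subunit of NF-Y, a subunit of NF-kappa-B and a proteasome activator, 2 of 13 regulators and 1 of 8 proteasome genes, beside 2.9% of all genes called. NFYC and NFKB1 kept the call in 2 of 6 fits with 1 library left out (replicate 3 at week 12 or replicate 2 at week 29) and PSME3 in 0 of 6, and PSME3 was at 0.39 ± 0.11 after the GC correction (limma adjusted p = 0.0624) and overlaps BECN1 on the other strand. At 100 nM ATF1 rose (0.61 ± 0.13, limma adjusted p = 0.0115), 1 of 13 regulators, beside 12.2% of all genes called. It was at 0.28 ± 0.15 after the GC correction and did not pass without replicate 2 of week 12 (limma adjusted p = 0.0893). None of these 4 passed without the filter on low values. POMP, which assembles the proteasome, was lower with iAs in vector clones at week 12, at 72.2, 62.5 and 81.2 FPKM at 100 nM against 114, 139 and 124 FPKM at 0 nM (-0.81 ± 0.19, limma adjusted p = 0.0479). That call was lost with any 1 of the 6 libraries left out and after the GC correction (-0.37 ± 0.12, limma adjusted p = 0.184). Of 11 genes of interferon signalling, SOCS3, a feedback inhibitor of cytokine receptors, fell by week 29 in miR-186 clones, to 2.58, 2.88 and 2.43 FPKM at 100 nM against 12.2, 13 and 7.45 FPKM at week 12 (-1.83 ± 0.33, limma adjusted p = 0.00494). At 0 nM it had 3.17, 4.18 and 2.86 FPKM at week 29 against 29.2, 25.8 and 9.53 FPKM at week 12 (-2.36 ± 0.33, limma adjusted p = 0.000627). Both calls held in 6 of 6 fits with 1 library left out, and that at 100 nM was lost without the filter on low values (limma adjusted p = 0.242). The fall was not particular to miR-186 clones. Vector clones at 100 nM had 5.83, 6.49 and 5.47 FPKM of SOCS3 at week 29 against 18.0, 17.9 and 9.34 FPKM at week 12, without overlap. At 0 nM they had 10.8, 8.44 and 14.8 FPKM against 13.8, 19.3 and 14.2 FPKM, with overlap, and neither change passed. Between constructs SOCS3 fell at 0 nM and week 29 (-1.58 ± 0.33, limma adjusted p = 0.0146), a change that was -1.28 ± 0.36 after the GC correction (limma adjusted p = 0.0551) and did not pass in 3 of 6 fits with 1 library left out (vector replicate 1 or 3, or miR-186 replicate 3). TYK2, a kinase of the JAK family that acts at interferon receptors, fell by week 29 in miR-186 clones at 100 nM (-0.60 ± 0.16, limma adjusted p = 0.0276) but it was at -0.06 ± 0.20 after the GC correction and passed in 3 of 6 fits with 1 library left out (not without replicate 2 of week 12 or replicates 1 or 3 of week 29). SOCS3 and TYK2 made 2 of 11 signalling genes called in that comparison, beside 12.2% of all genes.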

How the data were processed

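RNA of 24 HaCaT libraries was sequenced from TruSeq Stranded mRNA preparations pooled and run together, per the labels' protocols. The deposited FPKM values came from the authors' alignment with STAR 2.6.0c and from Cuffdiff 2.2.1 on hg38 (GRCh38), per the submitters' processing notes. Annotation release and strand setting are not given in the sources used here, and depth is unknown. Groups came from the labels. The members and lists were chosen with earlier results of these data known. The 14228 genes averaging 0.5 FPKM or more were tested on log2(FPKM + 0.5) with limma 3.58.1 in R 4.3.3, with all 8 groups in 1 fit, trended and robust variances, and Benjamini-Hochberg adjustment over all genes at 0.05; the pseudocount understates changes of low genes. The fits covered 12 pair comparisons and 6 differences of effects and were tested on simulated data. Genes with the most similar patterns were ranked by Pearson's r, and the text names all members, per list and comparison at most 4 genes past the threshold (smallest p first) or up to 2 with the smallest p where none passed, and the 5 genes most like the members' mean or 2 most like a member. Alternatives were pseudocounts of 0.1 and 1, no filter, a mean of at least 1 FPKM, median of ratios scaling, only the groups compared, a replicate block, a GC correction (spline with 5 degrees of freedom on genes above 1.5 FPKM, GC known for 99.9%), both together, and each library left out. Replicate numbers paired the samples (r over 0.1 in every pair) in 4 of 12 comparisons: exposure in vector clones at week 29, construct at 0 nM and week 29, and time in vector clones at 0 nM and in miR-186 clones at 100 nM. Not every gene the rules take is reported here.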

Additional observations from a re-analysis of the deposited data

How the results depend on the processing

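No member passed the threshold in any of the 18 tests under the pseudocounts, filters, scaling, restriction to the groups compared or GC correction, nor with any library left out (0 to 0 members in all 18). With the replicate block the count of members past the threshold was 1 in exposure of vector clones at week 12 (TAPBP, 0.79, limma adjusted p = 0.0297), 1 in time at miR-186 0 nM (PSMB9, -0.82, limma adjusted p = 0.0424) and 1 in time at miR-186 100 nM (TAPBP, -0.53, limma adjusted p = 0.0481). With GC correction and block it was 1, in time at miR-186 0 nM (PSMB9, -0.96). In the first 2 comparisons the replicate numbers missed the pairing check described under processing. Their r for replicates 1, 2 and 3 were 0.07, 0.71 and 0.44 in the first and 0.09, 0.42 and 0.34 in the second. Whether a number marks the same clone there is not given in the labels. HLA-B in time at miR-186 100 nM was at 0.10 with the GC correction, with and without the block, against -0.33; of 252 values of the 28 member changes reported, 246 kept direction and side of the threshold. GC correction turned the sign of 19 of 108 member changes. Counts over all genes moved more: exposure in vector clones at week 12 gave 197, but 7 with GC correction, 0 with only the groups compared, 1428 with the block, and 0 to 1 with a library left out. Where numbers paired the samples, the block gave 744 against 407 (construct, 0 nM, week 29) and 229 against 129 (time, vector, 0 nM). Of 261 values for 29 list gene changes, 50 lost the threshold. Depth is unknown, so counting error could not be set apart from replicate spread.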

Other observations

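Class II genes, which present extracellular peptides to CD4 T cells and are inducible in keratinocytes, were lower at week 29 than at week 12 in all 4 time comparisons, although none passed the threshold. All 7 tested genes, of 8 listed, had a log2 change below 0 in each, with medians of -0.96 (miR-186, 100 nM), -1.31 (miR-186, 0 nM), -1.01 (vector, 100 nM) and -0.86 (vector, 0 nM). The medians of all genes were 0.02, 0.06, -0.02 and 0.00 in the same order. These class II values are without the GC correction. CD74, the invariant chain, had 3.23, 7.98 and 1.93 FPKM at week 29 against 12.7, 27.3 and 11.3 FPKM at week 12 in miR-186 clones kept in 100 nM (-1.94 ± 0.72, limma adjusted p = 0.0753). The CD74 groups did not overlap there, as for 14.9% of all genes in that direction. In vector clones kept in 100 nM it had 16.7, 3.69 and 11.2 FPKM at week 29 against 116, 30.9 and 10.7 FPKM at week 12, where the groups overlapped (-1.86 ± 0.72, limma adjusted p = 0.263). CIITA, the class II transactivator, was at -1.56 ± 0.36 there (limma adjusted p = 0.0716).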
